A study of Homo sapiens with 12 samples.

Results

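HCT116, an established line of human colorectal carcinoma, was followed from 24 h to 48 h without cystine, and this comparison used 6 of the 12 RNA libraries of the series. The 6 were chosen by their labels alone, 3 libraries of cells deprived for 24 h and 3 of cells deprived for 48 h, and every named gene of the table was considered. Deprived cells were washed and given DMEM with 10% fetal bovine serum, antibiotics and 0 mM cystine. The other 6 libraries, 3 at 24 h and 3 at 48 h, came from control cells left in full DMEM with the same serum and antibiotics. All groups carry the WT genotype label, and the series as a whole concerns cysteine metabolism and hypoxia in colorectal cancer. A wash and a change of medium are described for deprived cells alone, and time in culture, cell density and the age of the medium may also differ between 24 h and 48 h, so these cannot be told apart from the length of deprivation. Nothing in the labels says whether the 3 libraries of a group are separate cultures, so each p-value reflects variation among these samples only, possibly technical variation.

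Cystine is the oxidised dimer of cysteine, imported by the SLC7A11 and SLC3A2 exchanger and reduced inside the cell. Cysteine feeds protein synthesis, iron-sulfur clusters, coenzyme A and glutathione, the main soluble antioxidant. Loss of it is known to engage ATF4, the transcription factor of the integrated stress response, and NRF2, the factor of antioxidant genes, and to sensitise many cells to ferroptosis, a death by lipid peroxidation. Progress through the cell cycle is read in transcripts too, since the genes of mitosis are switched on late in the cycle through promoter elements bound by the MuvB and NF-Y factors.

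The deprived libraries held 21164190 to 24179533 estimated counts each, and 16994 of 60671 named genes had enough counts to be tested. Transcripts of the mitochondrial genome took 6.42% to 6.82% of named counts at 24 h and 7.56% to 8.14% at 48 h. In a principal component analysis of the 6 libraries the first component, with 57.7% of the variance, placed the 24 h libraries at -40.5 to -37.3 and the 48 h libraries at 33.4 to 43.1. The second, with 11.7%, set deprived 48 h replicate 1 apart, at 33.9 against -11.5 and -18.7 for the other two. Without that library 7073 genes passed the test, and 6426 of the 7220 genes (89%) called with it were called in the same direction. Markers of epithelium were present, and markers of differentiated colon largely absent. EPCAM averaged 299.6 and 255 CPM, KRT8 2460.1 and 2145 CPM, KRT18 935 and 1070.5 CPM, CDH1 178 and 211 CPM and CDX2 13.6 and 18.9 CPM at 24 h and 48 h. Of 19 colon epithelial factors and differentiation genes 7 had counts enough for the test. CDX1 had no counts in any library, and CDH17, MUC2, CEACAM5, FABP1 and GPA33 reached at most 6, 6, 7, 7 and 11 estimated counts in a library. Of 8 leukocyte markers 3 were tested, and PTPRC and CD3E had no counts in any library. The summed level of that list was 11.4 to 12.3 CPM at 24 h and 23.2 to 27.5 CPM at 48 h, mostly CD68, a lysosomal protein, which rose in control cells too (1.16 and 1.23, log2). Of 7 endothelial markers 3 were tested, 0 higher and 1, EGFL7, lower (-0.66, log2; list sum 32.7 to 33.3 CPM summed at 24 h, 19.98 to 22.5 CPM at 48 h), PECAM1 having at most 6 estimated counts in a library. Of 8 fibroblast markers 3 were tested and 0 changed (15.9 to 20.4 and 20.1 to 22.2 CPM summed). Of 7 neural markers 6 were tested, 3 higher and 2 lower (178 to 193 and 211 to 228.5 CPM summed). Leaving out 1 library gave 1 to 3 of these higher and 0 to 2 lower, with 1 higher and 0 lower without deprived 48 h replicate 2. The part of these markers in the results was not tested.

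Between 24 h and 48 h of deprivation 7220 of 16994 tested genes (42.5%) changed at an adjusted p under 0.05 by edgeR's quasi-likelihood test with Benjamini-Hochberg adjustment, 3512 higher (20.7%) and 3708 lower (21.8%). Genes past 2-fold were mostly falls: 846 genes (4.98%) were at least 2-fold lower and 282 (1.66%) at least 2-fold higher. Many of these had low levels: with a mean of at least 5 CPM required, 443 were lower and 78 higher. Levels are CPM, counts scaled to library size by TMM, and a gene said to rise or fall passed this test. Counts of list members below are to be read beside the shares over all tested genes, 20.7% higher and 21.8% lower. The median log2 fold change over all tested genes was -0.00209, and the median size of a change, in either direction, was 0.264. Over the same interval in full medium 3911 genes (23%) changed, 2151 higher (12.7%) and 1760 lower (10.4%), and 133 (0.783%) were at least 2-fold higher and 68 (0.4%) at least 2-fold lower. The change with time itself differed between the media for 6048 genes (35.6%), tested as a difference of differences in the same fit: 2787 (16.4%) in the higher and 3261 (19.2%) in the lower direction under deprivation. That difference was at least 2-fold and higher for 282 genes (1.66%) and at least 2-fold and lower for 1043 (6.14%). The CPM of the 24 h and 48 h libraries did not overlap for 51.3% of tested genes in deprived cells. The largest rises and falls named below were required not to overlap. Other named genes were mostly picked by adjusted p or after their values were seen. Lack of overlap is therefore given below as description and not as further support. In bulk RNA, fewer cells in a state and less RNA per cell cannot be told apart, which applies to every result below.

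**Figure D1:**
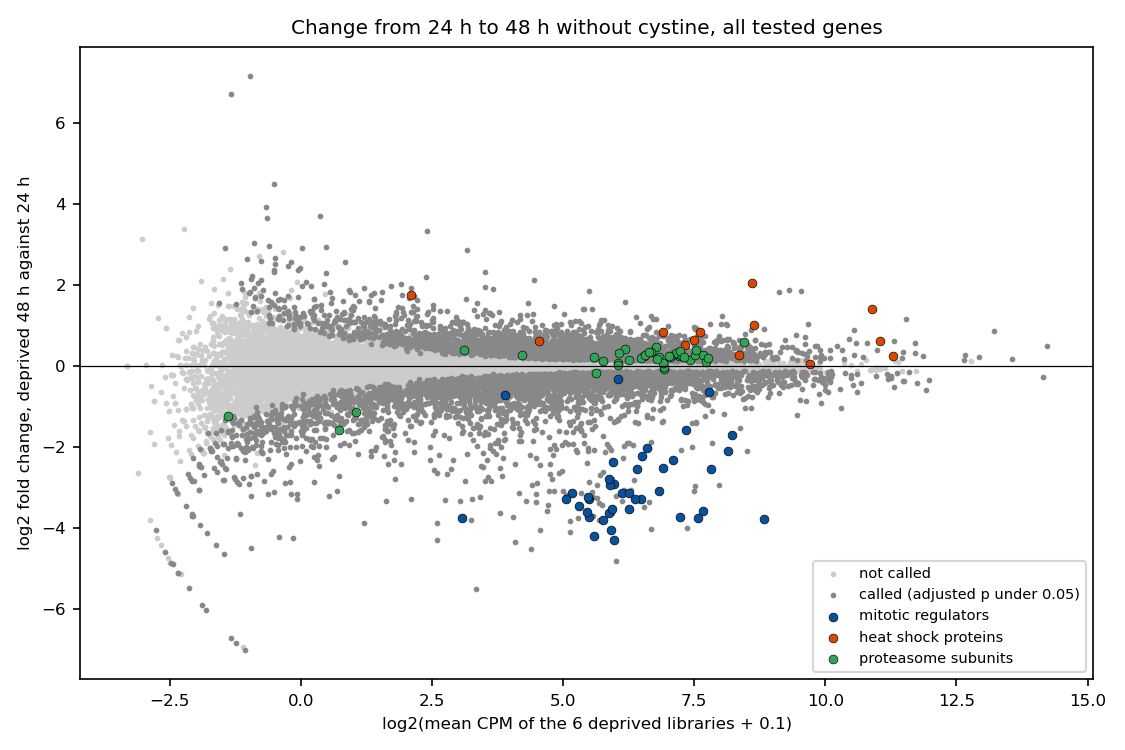
Log2 fold change of each tested gene, deprived 48 h against 24 h, plotted against its mean level in the 6 deprived libraries (log2 scale of CPM plus 0.1). Grey points are genes, darker where the adjusted p was under 0.05, and coloured points are members of 3 gene lists: the mitotic regulators lie from -4.29 to -0.33, while the heat shock proteins lie above 0 and most proteasome subunits slightly above it.

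Genes of mitosis had the lowest medians of the 52 gene lists. All 40 regulators of mitotic entry, spindle assembly and mitotic exit were called lower at 48 h (median log2 fold change -3.19), against 21.8% of all tested genes. The lists were chosen with earlier results of these data known. Shares and ranks of lists are therefore description and not support, here and below. Their summed level went from 7118 to 7265 CPM in the 24 h libraries to 1202 to 1213 CPM in the 48 h libraries. CDK1, the kinase that drives entry into mitosis (chromosome 10, 60778331 to 60794852, GRCh38), stood at 136, 139.7 and 135 CPM at 24 h and 17.2, 15.3 and 14.2 CPM at 48 h. CCNB1, cyclin B1, the partner of CDK1, stood at 279, 269.9 and 289.5 CPM at 24 h and 18.9, 21.7 and 22.1 CPM at 48 h. CDC20, which activates the anaphase-promoting complex, stood at 377, 367 and 376 CPM at 24 h and 29.98, 32.7 and 31.5 CPM at 48 h. For each of these genes all 48 h libraries lay far below all 24 h libraries. The log2 changes were -3.14 ± 0.07 (SE) for CDK1, -3.74 ± 0.07 for CCNB1 and -3.57 ± 0.07 for CDC20, with adjusted p-values of 7.3e-18, 2.5e-18 and 4.4e-18 by edgeR's quasi-likelihood test.

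Other members of the group behaved alike. MKI67, the Ki-67 proliferation antigen (chromosome 10, 128096659 to 128126385), stood at 829.5, 864 and 846 CPM at 24 h and 65.7, 59.8 and 59.9 CPM at 48 h. TOP2A, the topoisomerase that untangles sister chromatids, stood at 373, 356 and 339.5 CPM at 24 h and 26.9, 29.9 and 21.7 CPM at 48 h. CCNA2, cyclin A2 of S phase and G2, stood at 130.0, 122 and 124 CPM at 24 h and 14.9, 13.6 and 14.2 CPM at 48 h. None of these groups overlapped, and the falls were 13.7-fold for MKI67, 13.6-fold for TOP2A and 8.79-fold for CCNA2. The smallest falls in the group were those of FZR1, the late activator of the anaphase-promoting complex (-0.33), BUB3, a checkpoint protein (-0.65), and CDC25A, a phosphatase that also acts in G1 (-0.73). In full medium 26 of the 40 genes were called higher with time and 1 lower (median 0.23), and the change with time differed between media for 39 of the 40, all in the direction of a fall under deprivation. CDK1 in control cells averaged 92.03 and 114 CPM at 24 h and 48 h.

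**Figure D2:**
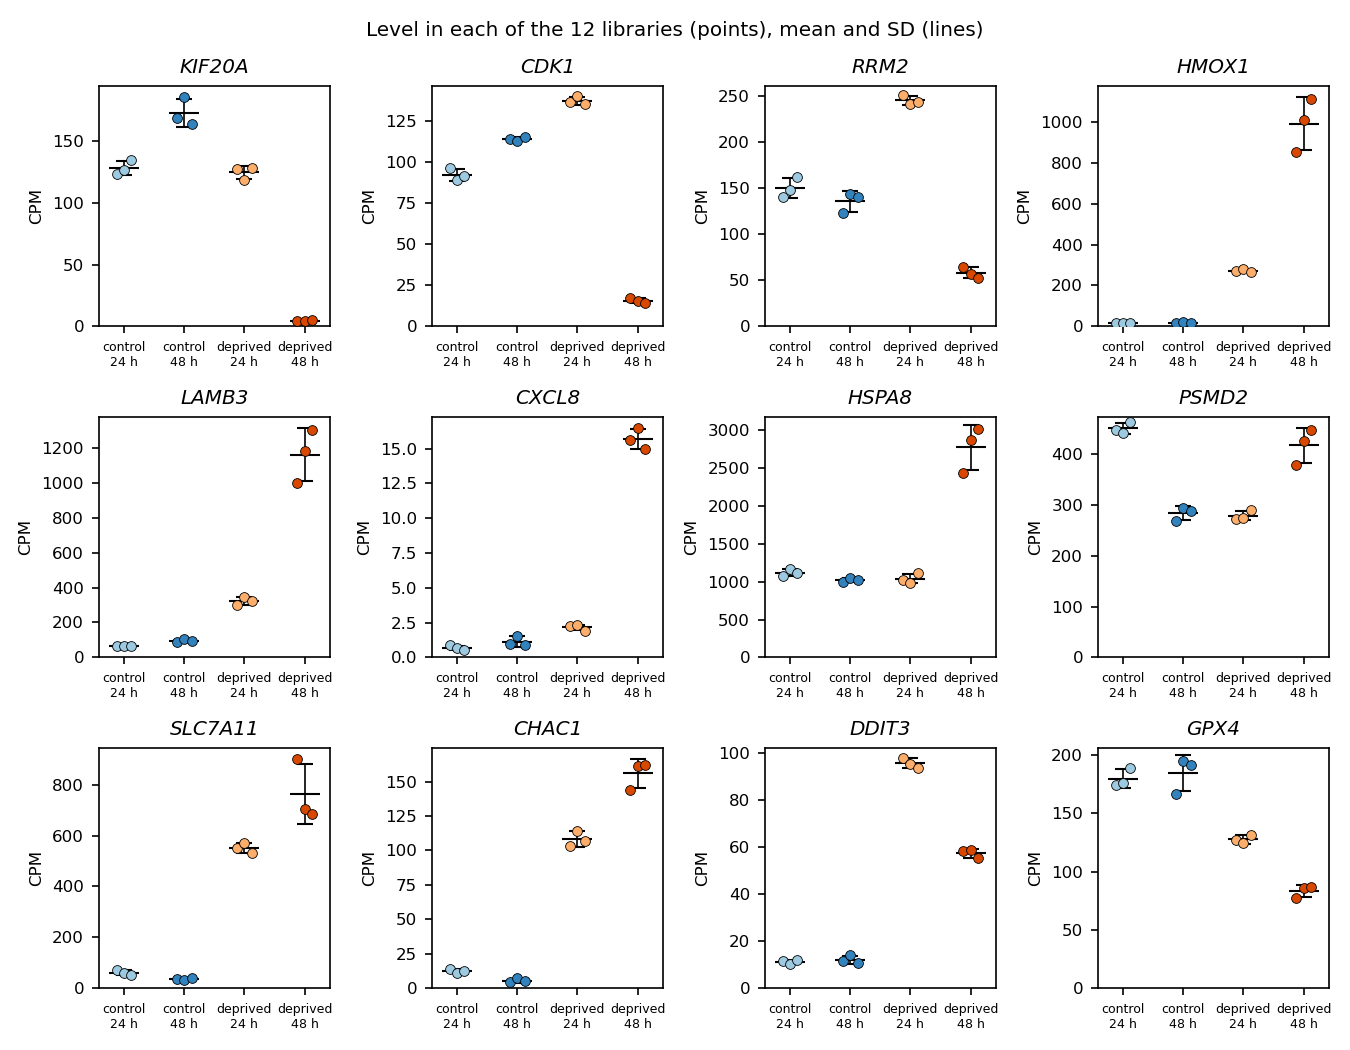
CPM of 12 genes in each of the 12 libraries, by medium and time (points, 1 per library; horizontal lines, group mean; bars, SD, n = 3). KIF20A, CDK1 and RRM2 were lowest in deprived cells at 48 h, HMOX1, LAMB3, CXCL8 and HSPA8 were highest there, and PSMD2 fell with time in full medium and rose without cystine.

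The promoters of these genes are shown because the members fell together. They come from RefSeq (GRCh38.p14), are read 5′ to 3′ on the strand of the gene, and are printed without bases that an annotated exon covers. In these lines capitals mark TTTGAA, the letters of the cell cycle genes homology region (CHR) bound by MuvB complexes, CCAAT, the box bound by NF-Y, or either in reverse (TTCAAA and ATTGG). The CDC20 stretch is chr1:43358731-43358954, that of CDK1 chr10:60778081-60778330 and that of CENPF, a kinetochore protein, chr1:214602945-214603194, all on the + strand.
CDC20: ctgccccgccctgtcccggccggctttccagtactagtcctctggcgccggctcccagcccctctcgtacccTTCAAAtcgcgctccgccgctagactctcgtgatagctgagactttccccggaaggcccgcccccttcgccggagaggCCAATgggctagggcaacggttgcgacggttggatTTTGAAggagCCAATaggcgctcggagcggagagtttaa
CDK1: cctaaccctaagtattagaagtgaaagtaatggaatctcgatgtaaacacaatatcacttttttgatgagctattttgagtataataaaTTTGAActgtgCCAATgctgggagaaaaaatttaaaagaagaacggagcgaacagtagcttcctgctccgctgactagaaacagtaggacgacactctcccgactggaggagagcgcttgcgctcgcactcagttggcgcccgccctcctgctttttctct
CENPF: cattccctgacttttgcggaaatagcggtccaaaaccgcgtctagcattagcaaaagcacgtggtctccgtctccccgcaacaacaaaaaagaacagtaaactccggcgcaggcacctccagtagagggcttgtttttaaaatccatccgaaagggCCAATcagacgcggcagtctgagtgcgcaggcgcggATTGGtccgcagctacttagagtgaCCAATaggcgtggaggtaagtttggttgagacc
In CDC20 forward CHR letters lie 65 to 60 bases before the start, with a CCAAT box beginning 55 bases before it. In CDK1 the CHR letters lie 161 to 156 and the CCAAT box 150 to 146 bases before the start. The CENPF stretch held 3 CCAAT boxes, 1 of them in reverse, and no CHR letters, which says only that TTTGAA is not in this window. Over the 250 bases before the start, on either strand, CHR letters were in 59.4% and CCAAT in 81.2% of the 32 mitotic regulators with a promoter in the table. Other lists that fell, described below, held CHR letters less often. The shares were 38.5% for mitotic kinesins, 19.2% for centromere and kinetochore proteins and 2.86% for replication and S-phase genes. For CCAAT they were 76.9%, 61.5% and 51.4%. The same letters were in 8.3% and 35.1% of the promoters of 11380 tested genes, and in 13.6% and 33% of all 27305 promoters. Among the 557 matched genes called at least 2-fold lower the shares were 18.5% and 51.3%, and among the 141 called at least 2-fold higher 7.8% and 29.1%. These matches describe letters in a window and are not binding sites.

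**Figure D3:**
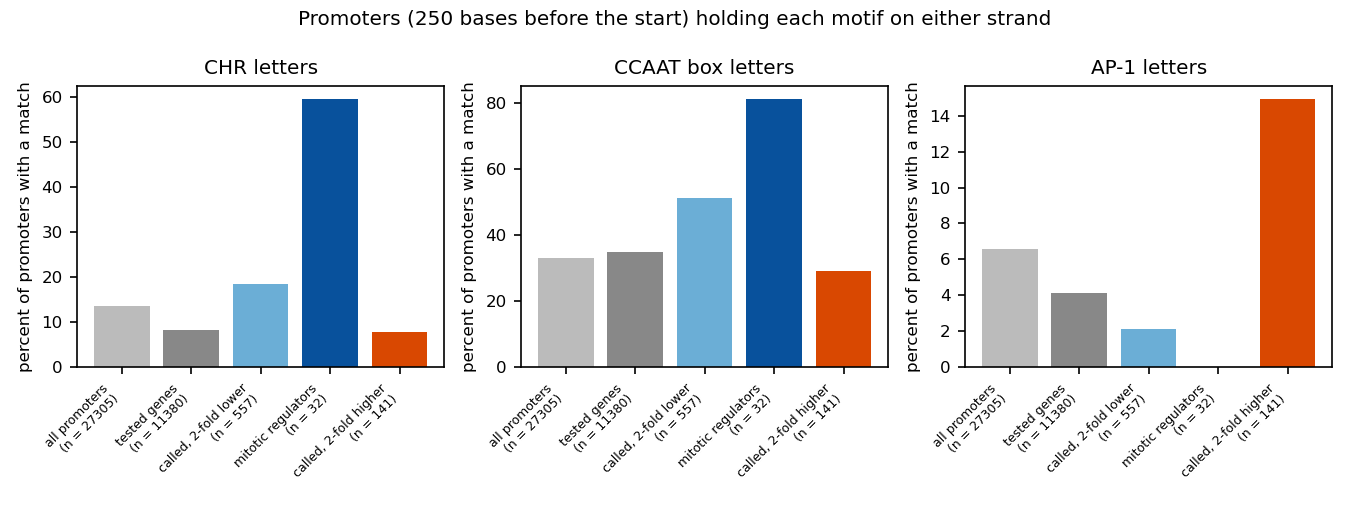
Percent of promoters with a match to CHR, CCAAT-box or AP-1 letters on either strand in the 250 bases before the start, for 5 sets of genes (bars; n, promoters matched). CHR letters were in 59.4% of the mitotic regulators against 8.3% of tested genes, and AP-1 letters in 14.9% of genes at least 2-fold higher against 4.11% of tested genes.

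Motor and centromere genes moved with them. All 13 mitotic kinesins were called lower (median -3.34). KIF20A, a motor of cytokinesis (chromosome 5, 138178719 to 138187715), stood at 127, 119 and 128 CPM at 24 h and 4.05, 4.31 and 4.83 CPM at 48 h, a 28.3-fold fall (log2 -4.82 ± 0.08). The smallest fall among them was that of KIF22 (-1.90). Of 31 centromere and kinetochore proteins, 29 were lower and 0 higher (median -1.71). CENPA, the histone H3 variant that marks centromeres (chromosome 2, 26764289 to 26801067), stood at 32.6, 29.6 and 34.7 CPM at 24 h and 1.805, 1.39 and 1.503 CPM at 48 h, and HJURP, its chaperone, at 118, 109 and 114 CPM at 24 h and 9.16, 9.19 and 9.02 CPM at 48 h. CENPF, whose promoter is printed above, stood at 314, 314 and 301 CPM at 24 h and 21, 18 and 18.5 CPM at 48 h. The 24 h and 48 h libraries did not overlap for any of these genes, which the naming rule required of the largest falls. The same held for 51.3% of all tested genes. MIS12 and CENPT did not pass the test, with log2 changes of -0.12 and 0.03.

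Condensin and cohesin, the rings that compact and hold chromosomes, were lower in 17 of 18 subunits and regulators (median -0.60), and within the list the subunits differed in size. Subunits of condensin I fell most: NCAPG by 3.20 ± 0.07, NCAPD2 by 2.97 ± 0.06 and NCAPH by 2.41 ± 0.06 on the log2 scale. The cohesin core fell less, with SMC1A at -0.44, SMC3 at -0.47 and STAG2 at -0.53, and RAD21, its cleavable subunit, at -1.04. In control cells 2 of the 18 were called higher and 4 lower.

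The largest falls among genes of at least 5 CPM included others tied to division. PIF1, a DNA helicase (chromosome 15, 64815632 to 64825668), stood at 19.6, 20.7 and 18.7 CPM at 24 h and 0.704, 0.139 and 0.4098 CPM at 48 h (log2 -5.52 ± 0.19), the largest fall by the naming rule. HMMR, a spindle-associated hyaluronan receptor, fell by 4.29 ± 0.09 and DLGAP5, a spindle assembly factor, by 4.20 ± 0.08 on the log2 scale. PIMREG, PRR11 and CCNB2, the last being cyclin B2, fell by 4.05 ± 0.12, 4.02 ± 0.07 and 4.05 ± 0.08. SPDYA, an activator of CDKs, fell by 4.29 ± 0.17, and DHRS2, a dehydrogenase, by 4.53 ± 0.15. DHRS2 stood at 39.8, 40.6 and 39.95 CPM at 24 h and 2.24, 1.95 and 1.002 CPM at 48 h, and averaged 12.6 and 11.9 CPM at 24 h and 48 h in control cells, where it did not pass the test.

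Genes of DNA synthesis fell less far than those of mitosis, and in full medium many of them fell too. Of 40 replication and S-phase genes, 35 were lower and 2 higher under deprivation (median -0.69), and 23 were lower and 1 higher in control cells (median -0.27). RRM2, the small subunit of ribonucleotide reductase (chromosome 2, 10120698 to 10131419), stood at 251, 241 and 243 CPM at 24 h and 64.4, 56.3 and 52.8 CPM at 48 h. TYMS, thymidylate synthase, stood at 129, 128 and 126 CPM at 24 h and 34.7, 33.6 and 30.8 CPM at 48 h, and TK1, thymidine kinase, at 116, 121 and 125 CPM at 24 h and 31.6, 32.99 and 31.6 CPM at 48 h. The groups did not overlap for any of them, with changes of -2.08 ± 0.08, -1.95 ± 0.06 and -1.91 ± 0.06 (log2 ± SE). The origin-licensing MCM helicase was split: MCM7 fell by 0.96 on the log2 scale and MCM2 by 0.28, MCM6 rose by 0.53, and MCM4 and MCM5 did not pass the test at -0.11 and 0.08. CCNE1, cyclin E1 of the G1 to S transition, was the other member that rose, and stood at 19.2, 17.5 and 14.7 CPM at 24 h and 23.8, 24.6 and 24.7 CPM at 48 h.

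Homologous recombination and Fanconi repair genes, many of them used in S phase, were lower in 25 of 27 and higher in 0 (median -1.15), against 6 lower and 0 higher in control cells. POLQ, a polymerase of end joining, fell by 2.42 ± 0.11, FANCD2 by 1.64 ± 0.07, BRCA2 by 1.63 ± 0.12 and BRCA1 by 0.68 ± 0.08 on the log2 scale. Of 63 replication-dependent histone genes, whose transcripts lack poly(A) tails, 27 had counts enough for the test, and 22 of these were lower and 1 higher (median -1.82) and 4 were called lower where a mean of at least 5 CPM was required. H1-2, a linker histone, stood at 25.1, 25.1 and 23.4 CPM at 24 h and 3.87, 3.06 and 4.14 CPM at 48 h. Histone copies are near-identical and may share reads, so single members are uncertain.

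The regulators of these programmes did not move as a block. FOXM1, the activator of G2 and mitosis genes (chromosome 12, 2857681 to 2877155), stood at 128, 128 and 126 CPM at 24 h and 15.3, 15.4 and 14.8 CPM at 48 h, and fell by 3.07 ± 0.06 on the log2 scale. MYBL2, which works with MuvB in late S phase, stood at 58.6, 62.7 and 56.9 CPM at 24 h and 21.1, 18.7 and 20.4 CPM at 48 h. The repressors E2F7 and E2F8, themselves E2F targets, fell by 1.46 ± 0.07 and 2.14 ± 0.13. E2F1 did not pass the test and overlapped between times, at 10.1, 11.4 and 11.2 CPM at 24 h and 12.5, 13.8 and 10.7 CPM at 48 h. Of all 19 E2F, DREAM and FOXM1 genes, 11 were lower and 2 higher (median -0.26), and the 2 that rose were RBL2, a DREAM pocket protein (0.17), and LIN37, a MuvB subunit (0.37); with any 1 deprived 24 h library left out, 1 gene of the list rose.

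CDK inhibitors and G1 cyclins went both ways, with 3 of 12 higher and 7 lower (median -0.37). CCND1, cyclin D1 of G1 (chromosome 11, 69641087 to 69654474), stood at 583, 594 and 609.7 CPM at 24 h and 929.8, 966 and 1025 CPM at 48 h, a rise of 0.71 ± 0.05 on the log2 scale. CDKN2C, the p18 inhibitor of CDK4 and CDK6, stood at 5.56, 5.58 and 6.42 CPM at 24 h and 0.4402, 1.25 and 0.865 CPM at 48 h, and CDKN1B, the p27 inhibitor, at 62.1, 57.01 and 54.8 CPM at 24 h and 42.4, 44.3 and 40.9 CPM at 48 h. Neither inhibitor overlapped between times, and both were lower at 48 h. CDKN1A, the p21 inhibitor and a p53 target, stood at 492, 514 and 501 CPM at 24 h and 512, 599 and 626 CPM at 48 h (log2 0.20 ± 0.07, adjusted p 0.021), and the groups overlapped. Without deprived 24 h replicate 1 or 3, or deprived 48 h replicate 2 or 3, the log2 change was 0.15 to 0.21 with adjusted p-values of 0.051 to 0.126 by edgeR's quasi-likelihood test, so the call was lost, and 1 of the 12 genes of the list was then higher. In control cells CDKN1A fell by 0.48 on the log2 scale.

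Targets of p53, the tumour suppressor that HCT116 cells retain, were split, with 10 of 27 higher and 11 lower (median -0.05). MDM2, the ubiquitin ligase of p53, stood at 259.8, 260.4 and 263 CPM at 24 h and 166, 150.3 and 156 CPM at 48 h. DDB2, a DNA damage sensor, stood at 38.5, 41.3 and 37.2 CPM at 24 h and 16.99, 20.1 and 18.99 CPM at 48 h, and SFN, the 14-3-3 sigma protein, at 180.1, 188 and 175 CPM at 24 h and 329, 394 and 395 CPM at 48 h. These groups did not overlap: MDM2 and DDB2 were lower at 48 h and SFN higher. In control cells 16 of the 27 were lower and 4 higher, and MDM2 fell there too (-0.63, log2), a difference between media of -0.10 ± 0.08 that did not pass the test (adjusted p 0.34).

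**Figure D4:**
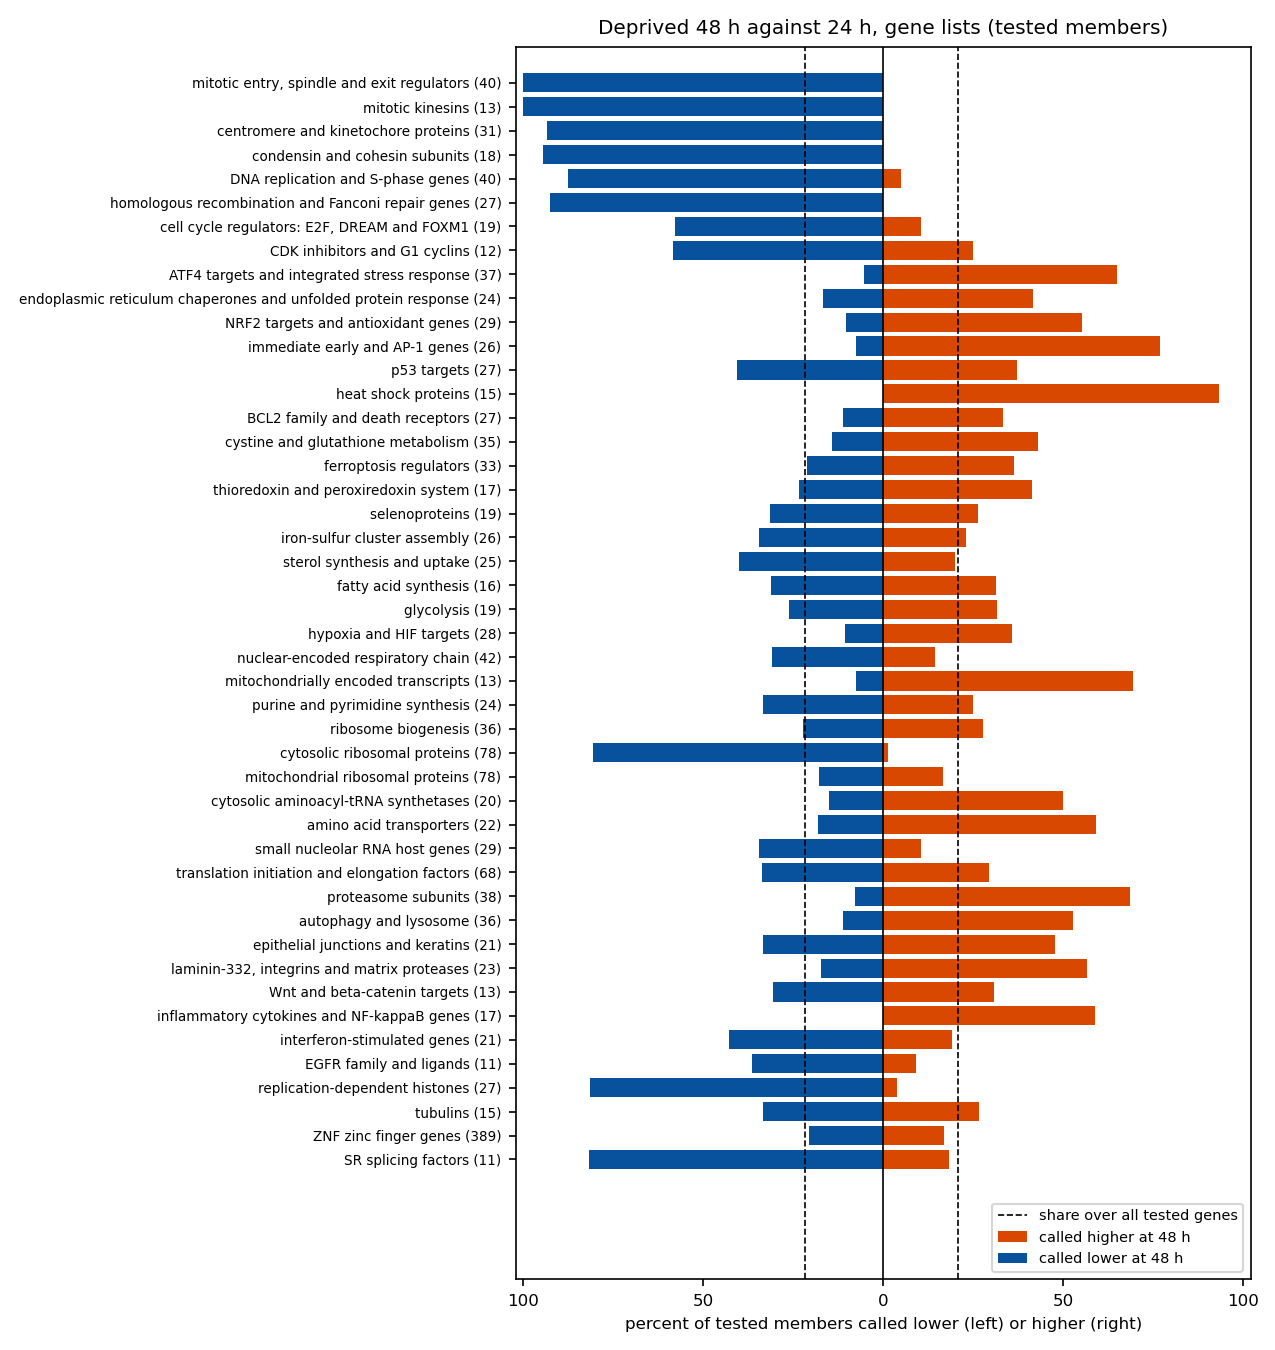
Percent of the tested members of each gene list called higher (right) or lower (left) in deprived cells at 48 h against 24 h, with the number of tested members in brackets and dashed lines at the shares over all tested genes (20.7% higher, 21.8% lower). Mitotic lists fill the left side, and the heat shock, immediate early and proteasome lists are drawn mostly to the right.

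Chaperones of the cytosol rose together. Of 15 heat shock proteins, 14 were called higher and 0 lower (median 0.63), against 20.7% of tested genes. HSPA8, the constitutive HSC70 (chromosome 11, 123057489 to 123063230), stood at 1028, 986 and 1113 CPM at 24 h and 2443, 2872 and 3013 CPM at 48 h. HSPA1B, an inducible HSP70, stood at 138, 158 and 165 CPM at 24 h and 491, 638 and 758 CPM at 48 h. DNAJB1, a co-chaperone of HSP70, stood at 266, 260.0 and 272 CPM at 24 h and 450.1, 552 and 597 CPM at 48 h. No 48 h library overlapped the 24 h libraries for any of them, and the rises were 2.66-fold, 4.099-fold and 2.01-fold. HSPA1A, a near-identical copy of HSPA1B, reached at most 9.78 estimated counts in a library and was not tested, so reads of the copies may have been assigned to HSPA1B. HSPD1 of the mitochondrial matrix was the member that did not pass the test (0.05). In full medium 0 of the 15 rose and 8 fell (median -0.26), and the change with time differed between media for 14 of 15. For HSPA8 the control means were 1121 and 1019.7 CPM at 24 h and 48 h.

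Proteasome subunits showed the same contrast at a smaller size. Of 38, 26 were higher and 3 lower under deprivation (median 0.23), while 3 were higher and 29 lower in control cells (median -0.33), and the difference was called for 35 of 38, 32 towards a rise without cystine. PSMD2, a subunit of the regulatory particle, stood at 273, 275 and 289 CPM at 24 h and 379, 427 and 447 CPM at 48 h, with control means of 451 and 284 CPM. PSMC4, an ATPase of that particle, stood at 93.9, 87.4 and 92.4 CPM at 24 h and 118, 131 and 132 CPM at 48 h. The 48 h libraries lay above the 24 h libraries for each. The 3 that fell were PSMD5 (-0.19), an assembly chaperone, and 2 subunits with low levels: PSMA8 of the testis form (-1.59) and PSMB9 of the immunoproteasome (-1.14).

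Among 36 autophagy and lysosome genes, 19 were higher and 4 lower (median 0.24), the latter 2 without deprived 24 h replicate 3. SQSTM1, the cargo receptor p62 (chromosome 5, 179806398 to 179838078), stood at 1077, 1025 and 1077 CPM at 24 h and 1811, 1995 and 2046 CPM at 48 h and rose by 0.88 ± 0.06 (log2). GABARAPL1, an ATG8 family protein, stood at 67.6, 65.6 and 71.4 CPM at 24 h and 103, 113 and 103 CPM at 48 h, and ATG12, of the conjugation system, at 183, 174 and 159 CPM at 24 h and 69.8, 66.5 and 64.3 CPM at 48 h. ATG12 was lower in every 48 h library, a 2.57-fold fall and the largest in the list. The lysosomal transcription factors TFEB, TFE3 and MITF rose by 0.56, 0.52 and 0.66 on the log2 scale.

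**Figure D5:**
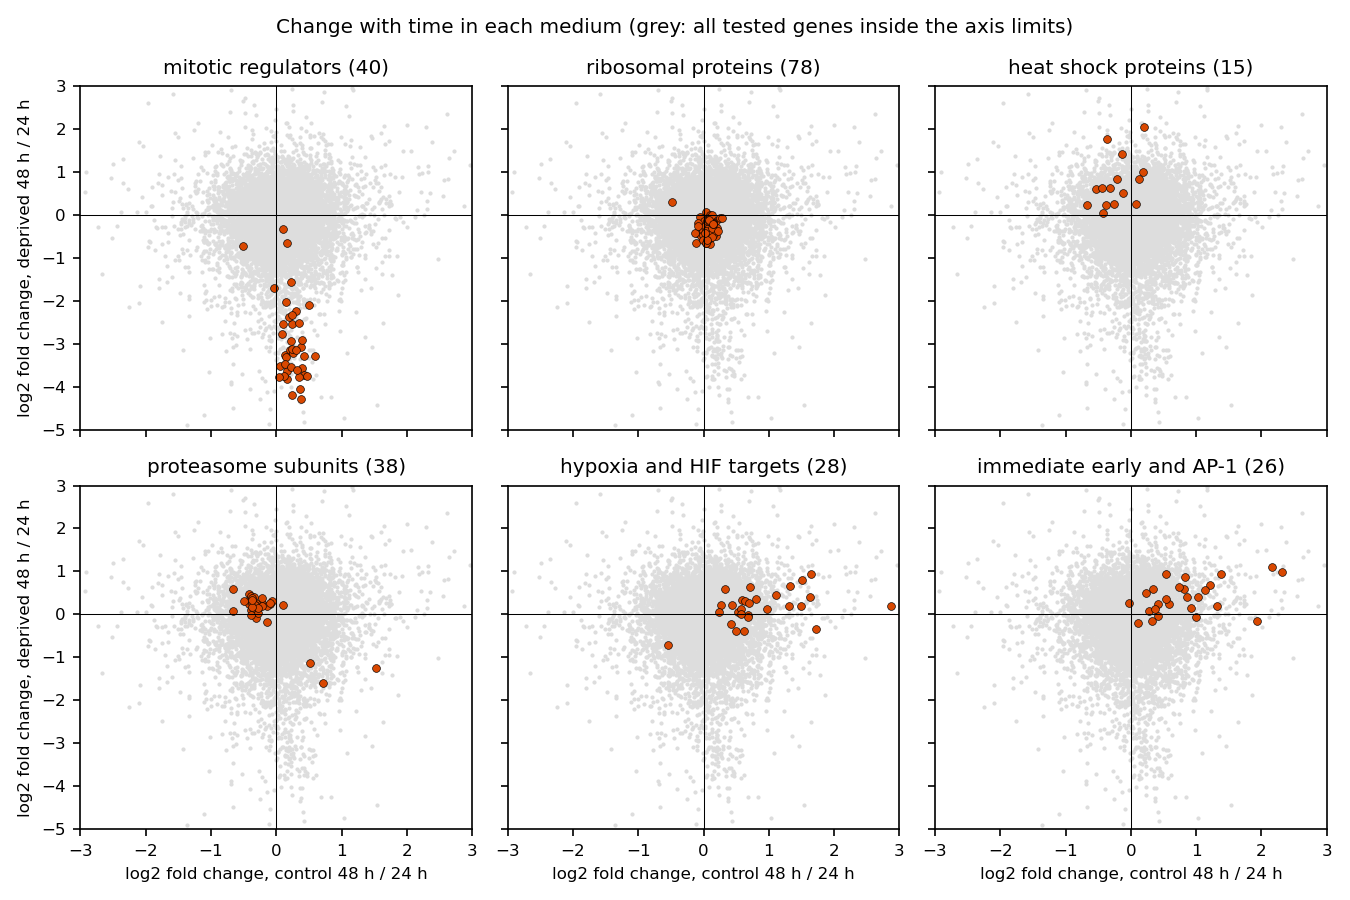
Log2 fold change from 24 h to 48 h in deprived cells (vertical) against that in control cells (horizontal) for the tested members of 6 lists (orange) over all tested genes within the axes (grey). Mitotic regulators lie far below 0 on the vertical axis and slightly above 0 on the horizontal one, proteasome subunits mostly above 0 and left of 0, and hypoxia targets right of 0.

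Antioxidant genes rose in part. Of 29 NRF2 targets and related genes, 16 were higher and 3 lower (median 0.30), whereas 3 were higher and 12 lower in control cells. HMOX1, haem oxygenase 1, which releases iron from haem (chromosome 22, 35380361 to 35394214), stood at 269, 279 and 267 CPM at 24 h and 855, 1012 and 1110.5 CPM at 48 h, a 3.65-fold rise (log2 1.87 ± 0.07, adjusted p 1.7e-13 by edgeR's quasi-likelihood test). TXN, thioredoxin, stood at 161, 151 and 162 CPM at 24 h and 244, 270.1 and 271 CPM at 48 h, and TXNRD1, its reductase, at 1271, 1221 and 1236 CPM at 24 h and 1761, 1892 and 1839.7 CPM at 48 h. For all of these the 48 h libraries were above every 24 h library. NQO1, a quinone reductase and standard NRF2 target, did not pass the test and overlapped between times, at 732, 654 and 720.3 CPM at 24 h and 697, 761 and 709.5 CPM at 48 h. The aldo-keto reductases AKR1C2 and AKR1B10, which have close paralogs that may share reads, rose by 1.62 and 1.42 (log2). The 3 genes that fell were TALDO1 (-0.41) and TKT (-0.38), enzymes of the pentose phosphate pathway, and ABCC2, an exporter (-0.31).

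Transcripts of the iron-storage protein ferritin rose with HMOX1. FTH1, the heavy chain of ferritin, stood at 6682, 6787 and 6911 CPM at 24 h and 11461, 12806 and 12746 CPM at 48 h, and FTL, the light chain, at 2007, 1945 and 2023 CPM at 24 h and 2836, 3191 and 3164 CPM at 48 h. Both were higher in all 48 h libraries. TFRC, the transferrin receptor of iron uptake, did not pass the test in deprived cells, at 540.5, 527 and 540.1 CPM at 24 h and 514, 529 and 532 CPM at 48 h, while it fell by 0.87 on the log2 scale in control cells. Of 33 ferroptosis regulators 12 were higher and 7 lower (median 0.11). The share called either way was 57.6%, against 42.5% of all tested genes, and the share called lower was near the 21.8% of all tested genes. GPX4, the peroxidase that reduces lipid peroxides (chromosome 19, 1103926 to 1106791), stood at 127, 124 and 132 CPM at 24 h and 77.6, 86.02 and 86.9 CPM at 48 h, a fall of 0.61 ± 0.06 (log2), and AIFM2, the ferroptosis suppressor FSP1, rose by 0.46. SAT1, a polyamine acetyltransferase, stood at 445, 431 and 439 CPM at 24 h and 259, 254 and 239 CPM at 48 h and fell by 0.81 ± 0.05, whereas in control cells it averaged 653 and 1513 CPM at 24 h and 48 h. That difference in direction was called (log2 -2.02 ± 0.07, adjusted p 3.3e-14 by edgeR's quasi-likelihood test).

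Transcripts of the cystine importer were higher at 48 h than at 24 h. SLC7A11, the transport chain (chromosome 4, 138164097 to 138242349), stood at 551, 572 and 529.6 CPM at 24 h and 900.3, 705 and 685 CPM at 48 h, and SLC3A2, its anchor chain, at 730.5, 779 and 788 CPM at 24 h and 973, 1107 and 1127 CPM at 48 h. The 48 h libraries were higher for both, with deprived 48 h replicate 1 the highest of its group for SLC7A11 and the lowest for SLC3A2. In control cells both fell with time, by 0.72 and 0.37 on the log2 scale, and the difference between media was 1.19 ± 0.15 for SLC7A11 and 0.85 ± 0.11 for SLC3A2. CHAC1, which degrades glutathione, stood at 103, 114 and 107 CPM at 24 h and 144, 162 and 162 CPM at 48 h, a 1.44-fold rise. GCLM, the modifier subunit of glutamate-cysteine ligase, rose by 0.46 ± 0.06, while its catalytic partner GCLC did not pass the test (-0.12 ± 0.05, adjusted p 0.088; -0.16 and 0.0252 without deprived 48 h replicate 1). GSR, glutathione reductase, also missed the threshold (-0.13 ± 0.06, adjusted p 0.083).

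Of 35 cystine and glutathione genes 15 were higher and 5 lower (median 0.05). GLRX, a glutaredoxin, stood at 40.6, 40.1 and 42.1 CPM at 24 h and 66.6, 79.4 and 79.8 CPM at 48 h. CTH, which makes cysteine from cystathionine, rose by 0.66 and SQOR, a sulfide oxidase of mitochondria, by 0.72 (log2). CBS, the step before CTH, reached at most 2.41 estimated counts in a library and was not tested. The 5 that fell were GPX4, GPX1 (-0.45), GOT1 (-0.67), AHCY (-0.45) and GGT7 (-0.79). Sestrins differed in direction: SESN3 stood at 11.5, 12.8 and 12.7 CPM at 24 h and 2.55, 2.69 and 2.19 CPM at 48 h and SESN1 fell by 0.88, while SESN2, also an ATF4 target, rose by 0.38 (log2). Of 19 selenoproteins 5 rose and 6 fell (57.9% called), and of 26 iron-sulfur assembly genes 6 rose and 9 fell (57.7% called). Over all tested genes 42.5% were called, and the shares of these lists that rose were near the 20.7% of all tested genes. Without deprived 48 h replicate 2 or 3, 3 of the 26 rose.

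ATF4 targets were mostly higher, by small amounts, with exceptions among the best known. Of 37, 24 were higher and 2 lower (median 0.24; 1 lower without deprived 24 h replicate 1 or deprived 48 h replicate 3), against 7 higher and 9 lower in control cells. NUPR1, a stress-induced chromatin protein, stood at 6.92, 6.91 and 5.14 CPM at 24 h and 15.7, 15.7 and 17.9 CPM at 48 h. STC2, a secreted stanniocalcin, stood at 526, 553 and 528 CPM at 24 h and 1037, 1103 and 1141 CPM at 48 h, and PPP1R15A, or GADD34, which restarts translation, at 323, 313 and 309 CPM at 24 h and 532, 618 and 639 CPM at 48 h. These groups did not overlap, with rises of 2.6-fold, 2.04-fold and 1.89-fold. DDIT3, or CHOP, the death-linked factor of the same response (chromosome 12, 57516588 to 57521737), stood at 97.6, 95.3 and 93.4 CPM at 24 h and 58.1, 58.6 and 55.1 CPM at 48 h and fell by 0.74 ± 0.07 on the log2 scale. CEBPB was the other member that fell (-0.25). TRIB3, a pseudokinase induced by ATF4 and CHOP, overlapped between times, at 321, 330.4 and 331 CPM at 24 h and 315, 351 and 361 CPM at 48 h (adjusted p 0.42), and ATF4 itself did not pass the test (0.13 ± 0.06; adjusted p 0.0357 without deprived 48 h replicate 1 and 0.0399 without control 48 h replicate 1).

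Of 24 chaperones and sensors of the endoplasmic reticulum 10 were higher and 4 lower (median 0.10), the latter 2 without deprived 24 h replicate 1 or 2 or deprived 48 h replicate 2, and under RLE scaling. HSPA5, the chaperone BiP, stood at 2668, 2615 and 2546 CPM at 24 h and 2915, 3119 and 2979 CPM at 48 h, a rise of 0.20 ± 0.05 (log2). EIF2AK3, the PERK kinase, stood at 36.95, 34.2 and 35.1 CPM at 24 h and 27.5, 28.1 and 26.05 CPM at 48 h and was lower in all 48 h libraries. Cytosolic aminoacyl-tRNA synthetases were higher in 10 of 20 and lower in 3 (median 0.15), with WARS1 for tryptophan at 321, 318 and 307 CPM at 24 h and 461, 499 and 525 CPM at 48 h and QARS1 for glutamine lower, at -0.58 ± 0.05. Amino acid transporters were higher in 13 of 22 and lower in 4 (median 0.34). SLC6A9, a glycine transporter, stood at 27.3, 31.5 and 29.3 CPM at 24 h and 50.2, 53.7 and 58.4 CPM at 48 h, and SLC7A2, for cationic amino acids, fell by 0.89 ± 0.10.

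The ribosome went the other way. Of 78 cytosolic ribosomal protein genes 63 were lower and 1 higher (median -0.26), against 1 lower and 6 higher in control cells (median 0.08), and the difference was called lower for 61. RPL10A stood at 913, 887 and 918 CPM at 24 h and 579, 615 and 622 CPM at 48 h, RPS9 fell by 0.67 ± 0.06 and RPL41 by 0.66 ± 0.05 (log2). The member that rose, RPS27L (0.29), is a p53 target and a paralog of RPS27. Ribosomal proteins have many processed copies in the genome, so single members are uncertain. Ribosome biogenesis factors were split, with 10 of 36 higher and 8 lower (50% called, against 42.5% of all tested genes). FBL, the methylase of ribosomal RNA, stood at 227, 218 and 225 CPM at 24 h and 116, 137 and 139 CPM at 48 h. Mitochondrial ribosomal proteins were higher in 13 and lower in 14 of 78, the latter falling to 7 without deprived 24 h replicate 1 and 9 without deprived 48 h replicate 1. Only 34.6% of them were called, against 42.5% of all tested genes. SR splicing factors were lower in 9 of 11 and higher in 2 (median -0.42; 1 higher without deprived 24 h or 48 h replicate 2), with SRSF7 at 95.2, 96.9 and 92.3 CPM at 24 h and 58.2, 57.6 and 55.96 CPM at 48 h. They fell in part in full medium as well, 6 of 11, and for SRSF1 and SRSF3 the difference between media did not pass the test (-0.13 ± 0.09 and -0.11 ± 0.07).

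Matrix, keratin and cytokine genes were among the largest rises. MMP1, a collagenase (chromosome 11, 102789920 to 102798160), stood at 0.78, 0.778 and 1.24 CPM at 24 h and 8.14, 10.3 and 10.1 CPM at 48 h, log2 3.33 ± 0.30, the largest rise by the naming rule. CXCL8, the chemokine interleukin 8 (chromosome 4, 73740506 to 73743716), stood at 2.24, 2.29 and 1.93 CPM at 24 h and 15.6, 16.5 and 14.98 CPM at 48 h, a 7.28-fold rise. The stretch before the CXCL8 start (RefSeq, GRCh38.p14, chr4:73740319-73740505, + strand) is shown because CXCL8 was among the largest rises and the window holds AP-1 letters, in capitals, 137 to 131 bases before the start.
CXCL8: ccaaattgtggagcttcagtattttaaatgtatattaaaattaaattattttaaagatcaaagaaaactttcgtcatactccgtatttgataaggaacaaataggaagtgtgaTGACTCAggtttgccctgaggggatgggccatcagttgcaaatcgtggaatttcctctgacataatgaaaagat
AP-1 letters, searched as TGANTCA on both strands, were in 14.9% of promoters of the 141 matched genes called at least 2-fold higher. They were in 2.15% of the 557 called at least 2-fold lower, in 4.11% of tested genes and in 6.6% of all promoters. Other letters were searched as well. Among the same 141 genes, those of the ATF4-type composite were in 4.26% (tested genes 1.41%). Letters of the antioxidant response element were in 10.6% (tested genes 12.1%) and of the heat shock element in 2.13% (tested genes 0.299%). Of 17 inflammatory and NF-kappaB genes 10 were higher and 0 lower (median 0.51), against 4 and 0 in control cells, and 5 were called higher without cystine where a mean of at least 5 CPM was required. LCN2, the siderophore-binding lipocalin, stood at 19.99, 19.8 and 18.97 CPM at 24 h and 69.7, 73.1 and 67.5 CPM at 48 h, and CXCL1, at low levels, at 0.683, 0.864 and 0.728 CPM at 24 h and 3.65, 1.95 and 2.82 CPM at 48 h. NFKBIA and TNFAIP3, inhibitors that NF-kappaB induces, rose by 0.25 and 0.52 (log2).

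Laminin genes of the basement membrane were among those that rose. LAMB3 (chromosome 1, 209614870 to 209652466) stood at 298, 343 and 326 CPM at 24 h and 1001, 1182 and 1306 CPM at 48 h. LAMA3 stood at 16.3, 13.2 and 15.2 CPM at 24 h and 40.6, 42.8 and 41.4 CPM at 48 h. Neither group overlapped, and the rises were 3.61-fold and 2.79-fold. Of 23 laminin, integrin and protease genes 13 were higher and 4 lower (median 0.38), and in control cells 14 were higher and 1 lower. PLAU, the urokinase activator of plasminogen, rose by 0.82 ± 0.06 and PLAUR, its receptor, by 0.85, while ITGB8 fell by 1.65 on the log2 scale. Among 21 junction and keratin genes 10 rose and 7 fell. KRT16, a keratin of stressed epithelium, stood at 3.998, 3.63 and 3.81 CPM at 24 h and 16.6, 20.2 and 19.9 CPM at 48 h, and KRT23 at 31.3, 29.9 and 31.2 CPM at 24 h and 12.9, 10.9 and 11.9 CPM at 48 h. Reads of KRT16 may be shared with close keratin copies. FLNC, a filamin that crosslinks actin, stood at 226, 257 and 254 CPM at 24 h and 769.7, 876 and 957 CPM at 48 h, a 3.53-fold rise, and DYSF, a membrane repair protein, rose by 1.95 ± 0.14 (log2).

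Most immediate early genes rose in both media. Of 26, 20 were higher and 2 lower without cystine (median 0.38; 1 lower when any deprived library but 48 h replicate 2 was left out), and 22 were higher and 0 lower in full medium (median 0.77). EGR1, a growth factor-induced zinc finger factor, stood at 80.3, 84.02 and 93.7 CPM at 24 h and 173, 174 and 168 CPM at 48 h, whereas in control cells it averaged 70.3 and 350.5 CPM at 24 h and 48 h, and the difference was called (-1.32 ± 0.11, log2). JUN, a subunit of AP-1, stood at 125, 131 and 125 CPM at 24 h and 227, 244 and 263 CPM at 48 h and its rise was larger without cystine by 0.41 ± 0.10. DUSP5, a phosphatase of ERK, stood at 266, 268 and 275 CPM at 24 h and 458, 507 and 519 CPM at 48 h and rose in both media, by 0.87 without cystine and 0.83 with it (log2), a difference of 0.04 ± 0.08 that did not pass the test. FOS did not pass the test (-0.16).

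Hypoxia and glycolysis genes, most of which rose with time in full medium, had medians nearer 0 without cystine. Of 28 hypoxia and HIF targets 10 were higher and 3 lower in deprived cells (median 0.20). The lower count was 1 without deprived 24 h replicate 3 or deprived 48 h replicate 1 or 3. The share called either way was 46.4%, near the 42.5% of all tested genes. In control cells 26 were higher and 0 lower (median 0.68), and the difference was called lower for 19 and higher for 0. ANKRD37, a HIF target, stood at 3.998, 4.71 and 5.27 CPM at 24 h and 4.58, 6.73 and 4.78 CPM at 48 h, while in control cells it averaged 7.46 and 54.3 CPM. CA9, carbonic anhydrase 9, stood at 1.12, 1.47 and 1.199 CPM at 24 h and 1.23, 0.789 and 0.956 CPM at 48 h. Neither passed the test in deprived cells. VEGFA, the angiogenic factor, stood at 243, 272 and 255 CPM at 24 h and 417, 381 and 393 CPM at 48 h and rose in both media, by 0.63 without cystine and 0.71 with it (log2), a difference of -0.08 ± 0.09 that did not pass the test. HIF1A did not pass the test (0.09 ± 0.05). Of 19 glycolysis genes 6 rose and 5 fell (3 without deprived 24 h replicate 3 or deprived 48 h replicate 1), with ALDOC, an aldolase, at 52.1, 63.96 and 61.3 CPM at 24 h and 27.6, 35.8 and 35.1 CPM at 48 h against control means of 151 and 307 CPM, and HK2, hexokinase 2, rising by 0.76 ± 0.09.

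Sterol genes were split. INSIG1, the sterol sensor that restrains SREBP, stood at 33.7, 34.01 and 37.4 CPM at 24 h and 59.1, 67.6 and 70.7 CPM at 48 h and rose with no overlap (0.91 ± 0.08, log2), while HMGCS1, an enzyme of sterol synthesis, did not pass the test (0.02). Of 25 sterol synthesis and uptake genes 5 were higher (3 without deprived 24 h replicate 2 or 3) and 10 lower (median -0.10), and 1 was higher and 12 lower in control cells. The share called either way in deprived cells was 60%, against 42.5% of all tested genes, and the share called higher was near the 20.7% of all tested genes. FADS2, a fatty acid desaturase, stood at 22.2, 22.4 and 22.5 CPM at 24 h and 10.1, 11.7 and 11.2 CPM at 48 h, and ME1, which makes NADPH, rose by 0.63 ± 0.05. Mitochondrially encoded transcripts were higher in 9 of 13 and lower in 1 (median 0.22; 0 lower without deprived 24 h replicate 2 or 3 or deprived 48 h replicate 1), as in control cells, where 9 rose and 0 fell. Nuclear genes of the respiratory chain were higher in 6 and lower in 13 of 42 (45.2% called, near the 42.5% of all tested genes).

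Death and signalling genes changed in part. Of 27 BCL2 family, caspase and death receptor genes 9 were higher and 3 lower (median 0.11), the latter 1 without deprived 48 h replicate 2 and 1 by DESeq2. The share called, 44.4%, was near the 42.5% of all tested genes. PMAIP1, or NOXA, stood at 148, 144 and 137 CPM at 24 h and 214, 211 and 211 CPM at 48 h, and TNFRSF10A, a TRAIL receptor, at 81.1, 76.6 and 78.02 CPM at 24 h and 121, 131 and 136 CPM at 48 h. Both rose with no overlap, while BCL2L11, or BIM, was lower (-0.48 ± 0.06, log2). KRT20, a keratin of differentiated colon epithelium, stood at 1.12, 1.297 and 0.856 CPM at 24 h and 0, 0.0928 and 0.273 CPM at 48 h, and KLF5, a factor of proliferating intestinal epithelium, rose by 0.73. Among ligands of EGFR, HBEGF stood at 18.7, 17.8 and 19.5 CPM at 24 h and 34.1, 37.7 and 41.1 CPM at 48 h and AREG at 478, 458 and 455 CPM at 24 h and 341, 338 and 312 CPM at 48 h; HBEGF rose and AREG fell, the reverse of AREG in control cells (0.65). Wnt targets were split, 4 of 13 higher and 4 lower, with NKD1, a feedback inhibitor, at 15.2, 14.5 and 16.5 CPM at 24 h and 7.26, 9.23 and 8.197 CPM at 48 h. Interferon-stimulated genes were lower in 9 of 21 and higher in 4 (median -0.14), against 0 lower and 9 higher in control cells. MT1X and MT2A, metallothioneins with close copies, rose by 0.97 ± 0.07 and 0.40 ± 0.06. Of 15 tubulins 4 rose (2 without deprived 24 h replicate 1 or deprived 48 h replicate 2 or 3) and 5 fell, with TUBB4B at 402, 409 and 413 CPM at 24 h and 234, 264 and 276 CPM at 48 h.

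Across all genes the direction in the 2 media was often different. Of the 3512 genes that rose without cystine, 628 also rose in full medium, 436 fell there and 2448 were not called there. Of the 3708 that fell, 501 also fell in full medium, 667 rose and 2540 were not called. For all 436 and all 667 genes with calls in opposite directions the difference between media was itself called. Opposite calls in 1 fit make this nearly certain, so it is no separate evidence. Protein-coding genes were called more often than other classes, 23.25% higher and 24.7% lower of 13702. Of 2174 long noncoding RNAs 9.706% were higher and 9.062% lower. The classes were not matched on level, and median levels were 27.2 CPM for protein-coding genes and 1.13 CPM for long noncoding RNAs. Genes of the longest quintile by annotated length were lower in 26.3% and higher in 21.15% of cases, and those of the shortest quintile in 20.24% and 16.5%. Their median levels in deprived cells also differed, at 33.96 and 7.62 CPM, and their median log2 changes were -0.0248 and -0.0154. The 389 ZNF genes, a family of zinc finger factors, were higher in 66 and lower in 80, and lower in 61 to 92 when 1 library was left out. Of these genes 37.5% were called, against 42.5% of all tested genes.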

How the data were processed

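RNA-seq of 12 HCT116 libraries (3 per medium and time) was read from 1 deposited table of estimated counts per gene, which the authors left without normalization. The submitters' processing notes name fastp, HISAT, RSEM and GRCh38, without versions or roles, and the annotation release and strandedness are not given in the sources used here. Reads from overlapping genes, or from a gene and its antisense partner, may therefore be mixed. The labels mention a TPM table, but column totals differ between libraries (19146108 to 24179533), so values were treated as estimated counts and rounded to whole numbers. Of 60987 rows, 316 without a gene name were left out, with 0.748% to 1.65% of counts. Genes passing filterByExpr (minimum count 10, minimum total count 15) were fitted with edgeR 4.0.16 (R 4.3.3), TMM scaling and 4 group means over all 12 libraries. This left 8 residual degrees of freedom and a biological coefficient of variation of 6.4%. Contrasts were tested by quasi-likelihood with Benjamini-Hochberg adjustment over 16994 genes, at 0.05. The standard error is the log2 fold change divided by the root of F.

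The members and the 52 gene lists were chosen with earlier results of these data known. List counts and medians cover members that passed the count filter. The naming rule took the 12 largest rises and falls (mean of at least 5 CPM, groups not overlapping, plain symbol), the 3 largest each way in control cells, up to 4 members of each list by adjusted p, and a set of 41 genes of cystine, stress and cell cycle. Other list members in the text were chosen after their values were seen. Replicates differed beyond sampling noise (chi-square over degrees of freedom, 2.99 to 8.14 in deprived groups), so no library was counted once for a pair. Counts were also simulated for deprived 48 h against 24 h, with 200 changed genes (16640 genes tested). The real comparison had 7220 called genes, so the simulated recovery and false-call rate need not carry over to it. In the simulation the test recovered 63.1% of genes at 1.5-fold, 78.1% at 2-fold and 93.8% at 4-fold, with 1.94% false calls. Alternatives were RLE and upper-quartile scaling, library totals alone, DESeq2 1.42.0, no filter, a mean of at least 5 CPM, only the compared groups, a replicate block, and each library left out. Coordinates are those of GENCODE release 29 (GRCh38), matched by identifier for 58453 of 60671 named rows. Promoters are from RefSeq (GRCh38.p14), matched by symbol for 11380 of 16983 symbols of tested genes, and were searched over the 250 bases before the start. The letters searched were those of CHR, the CCAAT box, AP-1, the ATF4-type composite, the antioxidant response element and the heat shock element.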

Additional observations from a re-analysis of the deposited data

Results flagged for a closer look

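The change from 24 h to 48 h was called in opposite directions in deprived and control cells for many genes. There were 436 that rose without cystine and fell in full medium, and 667 that did the reverse. All of them passed the test of the difference too, which opposite calls in the same fit make nearly certain. Among the largest falls and rises and the cystine, stress and cell cycle genes of the naming rule, those that fell without cystine and rose in full medium, with the log2 difference of the changes, were PIF1 (-6.06), KIF20A (-5.25), CENPA (-4.73), HMMR (-4.66), DLGAP5 (-4.43), PIMREG (-4.44), CCNB2 (-4.41), PRR11 (-4.25), CCNA2 (-3.37), CDK1 (-3.44), TOP2A (-4.12) and YPEL1 (-2.81). Those that rose without cystine and fell in full medium were SLC7A11 (1.19), SLC3A2 (0.848), CHAC1 (1.74), GCLM (0.78) and CDKN1A (0.681). Groups had 3 libraries each, so a single library far from its group was not looked for by a rule.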

How the results depend on the processing

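Of 246 named genes, 237 kept their direction and side of the threshold under every alternative. CDKN1A, HNF4A, NCAM1, TUBB3, ENO2 and RN7SK lost a call under at least 1 setting, and GCLC, GSR and ATF4 gained one. With a mean of at least 5 CPM required, genes at least 2-fold higher and lower numbered 78 and 443 in deprived cells. They numbered 47 and 8 in control cells and 90 and 617 for the difference. All calls moved less, to 6461 from 7220 in deprived cells and to 3968 from 3911 in control cells. Many of the changes past 2-fold were thus in genes below 5 CPM. In control cells 29 genes were at least 2-fold lower by DESeq2 and 119 without a filter on low counts; the cause was not tested. The majority direction under deprivation depended on scaling: 48.6% of calls were higher with TMM, 51.3% with RLE (3715 higher, 3532 lower), 50.9% with upper quartiles and 51% by DESeq2, with the median of all genes shifted by at most 0.0146.

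Leaving out 1 library at a time gave 6240 to 7357 called genes in deprived cells (2948 to 3629 higher, 3263 to 3728 lower; at least 2-fold, 259 to 300 and 799 to 902). It gave 2914 to 4356 in control cells (1559 to 2329 higher, 1307 to 2027 lower; at least 2-fold, 109 to 146 and 51 to 96) and 5352 to 6032 for the difference (2420 to 2814 higher, 2895 to 3218 lower; at least 2-fold, 256 to 301 and 977 to 1070). All 40 mitotic regulators were called lower and 14 of 15 heat shock proteins higher in each of these refits.

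Replicate numbers are shared by the groups. Deviations of deprived libraries with the same number correlated at 0.0198, -0.0409 and 0.0197, and those with different numbers at -0.0529 to 0.0352. With 3 libraries per group this cannot decide whether the numbers pair the samples, and the main fit did not pair them. With the replicate block 7473 genes were called in deprived cells (3618 higher, 3855 lower), 4306 in control cells and 6329 for the difference. Without it the numbers were 7220, 3911 and 6048. At 21164190 to 24179533 counts per deprived library, genes near the filter have few counts, and their missing calls say little about change.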

Other observations

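Several genes outside the lists moved by large factors and were picked after their values were seen. Lower at 48 h than at 24 h of deprivation were HMGB2, a chromatin protein of dividing cells (443 and 57.6 CPM on average), STMN1, a regulator of microtubules (281 and 70.5 CPM), LMNB1, lamin B1 of the nuclear envelope (162 and 44.1 CPM), H2AX, the histone variant of DNA damage signalling (161 and 39.3 CPM), and CIT, citron kinase of cytokinesis (65.1 and 7.31 CPM). KITLG, the ligand of the KIT receptor, fell by 2.09 ± 0.07 on the log2 scale and SCG2, a secretogranin, by 2.21 ± 0.08. Higher were PLEC, a cytolinker (1861 and 4124 CPM), L1CAM, an adhesion molecule (22.5 and 47.5 CPM), CASP4, an inflammatory caspase (23.9 and 51.3 CPM), and MGST1, a membrane glutathione transferase (64.9 and 145 CPM). Each had an adjusted p under 0.05 by edgeR's quasi-likelihood test.

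Deprived 48 h replicate 1, which stood apart from its group, differed most in FP671120.7, a locus with a clone name. It stood at 83.5 CPM there against 23.4 and 7.01 CPM, and averaged 325 and 37.97 CPM at 24 h and 48 h. SGO2 and DEPDC1B, genes of cell division picked from the largest differences, stood at 7.44 and 7.70 CPM there, against 3.34 and 5.24 CPM for SGO2 and 4.41 and 4.33 CPM for DEPDC1B. Lists of cell division went both ways in that library. Summed mitotic regulators stood at 1202 CPM there against 1209 and 1213 CPM. Mitotic kinesins stood at 149.5 against 127 and 128 CPM, and centromere and kinetochore proteins at 340 against 309 and 306 CPM.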
